A study of Rattus norvegicus with 6 samples.

Results

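The genes described here encode the 5 kainate receptor subunits (Grik1 to Grik5) and the delta receptor subunit Grid1, 6 genes of the 25629 in the deposited count matrices. They were taken by gene symbol, and each symbol belonged to 1 row: Grik1 is ENSRNOG00000001575, Grik2 is ENSRNOG00000000368, Grik3 is ENSRNOG00000008992, Grik4 is ENSRNOG00000030910, Grik5 is ENSRNOG00000020310 and Grid1 is ENSRNOG00000055499. The question was which of these subunit genes each class of nucleus expressed, and whether naloxone changed their levels. The study measured RNA of single nuclei from the rat nucleus accumbens, a ventral striatal region with many opioid receptors that takes part in drug reward. All animals were Sprague-Dawley rats of postnatal day 90 to 120, and all of them, the controls included, had self-administered heroin: 7 days at a fixed ratio of 1 response, 4 days at a ratio of 3, a progressive ratio test on day 12 and, on days 13 and 14, a ratio of 3 once more. An injection of saline or of naloxone, which blocks opioid receptors, followed the final session, with brains collected 1 h after it. The 12 rats (6 males, 6 females) were pooled across sex into 6 libraries: saline 1, 2 and 3, and naloxone 4, 5 and 6. There was no heroin-naive group, and the labels do not say which rats went into which library, so p-values measure the spread between these libraries.

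Kainate receptors are ionotropic glutamate receptors made of 4 subunits. GluK1, GluK2 and GluK3 (genes Grik1, Grik2 and Grik3) can each form a channel on their own, whereas GluK4 and GluK5 (Grik4 and Grik5) bind kainate with high affinity and reach the cell surface as channels only together with one of GluK1 to GluK3. Kainate receptors sit on both sides of synapses, where they tune transmitter release and excitability, and the auxiliary proteins Neto1 and Neto2 slow their gating. GluD1 (Grid1) resembles these receptors in sequence but is not opened by glutamate, and acts mainly as a synaptic adhesion protein that is bridged by cerebellins to presynaptic neurexins.

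The files held 64260 barcodes with 55739350 to 76272798 unique molecular identifiers (UMIs, which count captured RNA molecules) per library. Of these, 58960 nuclei were used, 7647 to 13676 per library, with a median of 4192 to 6431 UMIs. The labels speak of 44592 nuclei, a lower number than the barcodes in the files. The median mitochondrial share was 0.154% to 0.344% in 5 libraries and 0.564% in naloxone 5, and 463 of 63796 barcode sequences occurred in more than 1 library. Clustering, done without the 6 genes, gave 48 clusters, of which 21 with 41339 nuclei carried the markers of a class and are called by it ("Drd1-like" and so on). A further 15 clusters with 10688 nuclei stayed unnamed and are called by the first gene with a symbol among their leading genes (for the Mboat1-led cluster 3 genes without a symbol come before it). Another 12 clusters with 6933 nuclei were left aside as mixed. These either lay near simulated doublets (a median of at least 44 of 60 nearest neighbours) or carried markers of several classes. Of the 15 named classes, 13 had at least 20 nuclei in every library. They were 4 classes of spiny projection neuron (Drd1-like with 8452 nuclei, Drd2-like with 4822, Chst9-like with 3429 and eccentric-like with 1782) and 3 classes of interneuron (cholinergic-like with 280, Sst-like with 470 and Pthlh-like with 879). The other 6 were astrocyte-like (4619), oligodendrocyte-like (11661), oligodendrocyte precursor (OPC)-like (2185), committed OPC-like (359), microglia-like (1575) and endothelial-like (387) nuclei. Some labels rest on incomplete evidence: the cholinergic markers Chat and Slc18a3 and the spiny neuron marker Tac1 were not analysed here, and 2 of the 3 Drd1-like clusters, led by Il20ra and Dnah11, had none of the Drd1 list among their 10 leading genes. Each of these 2 carried 3 of the 6 Drd1 markers. The Chst9-like cluster also carried all 4 eccentric markers, and the eccentric-like cluster carried 3 of the 4 Chst9 markers. The endothelial-like nuclei also carried spiny neuron RNA (Rgs9, which shapes G-protein signalling in spiny neurons, at 283 ± 185 UMIs per 1000000 UMIs of the class, SD, n = 6 libraries), and its part in the neuronal genes seen there was not tested.

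**Figure D1:**
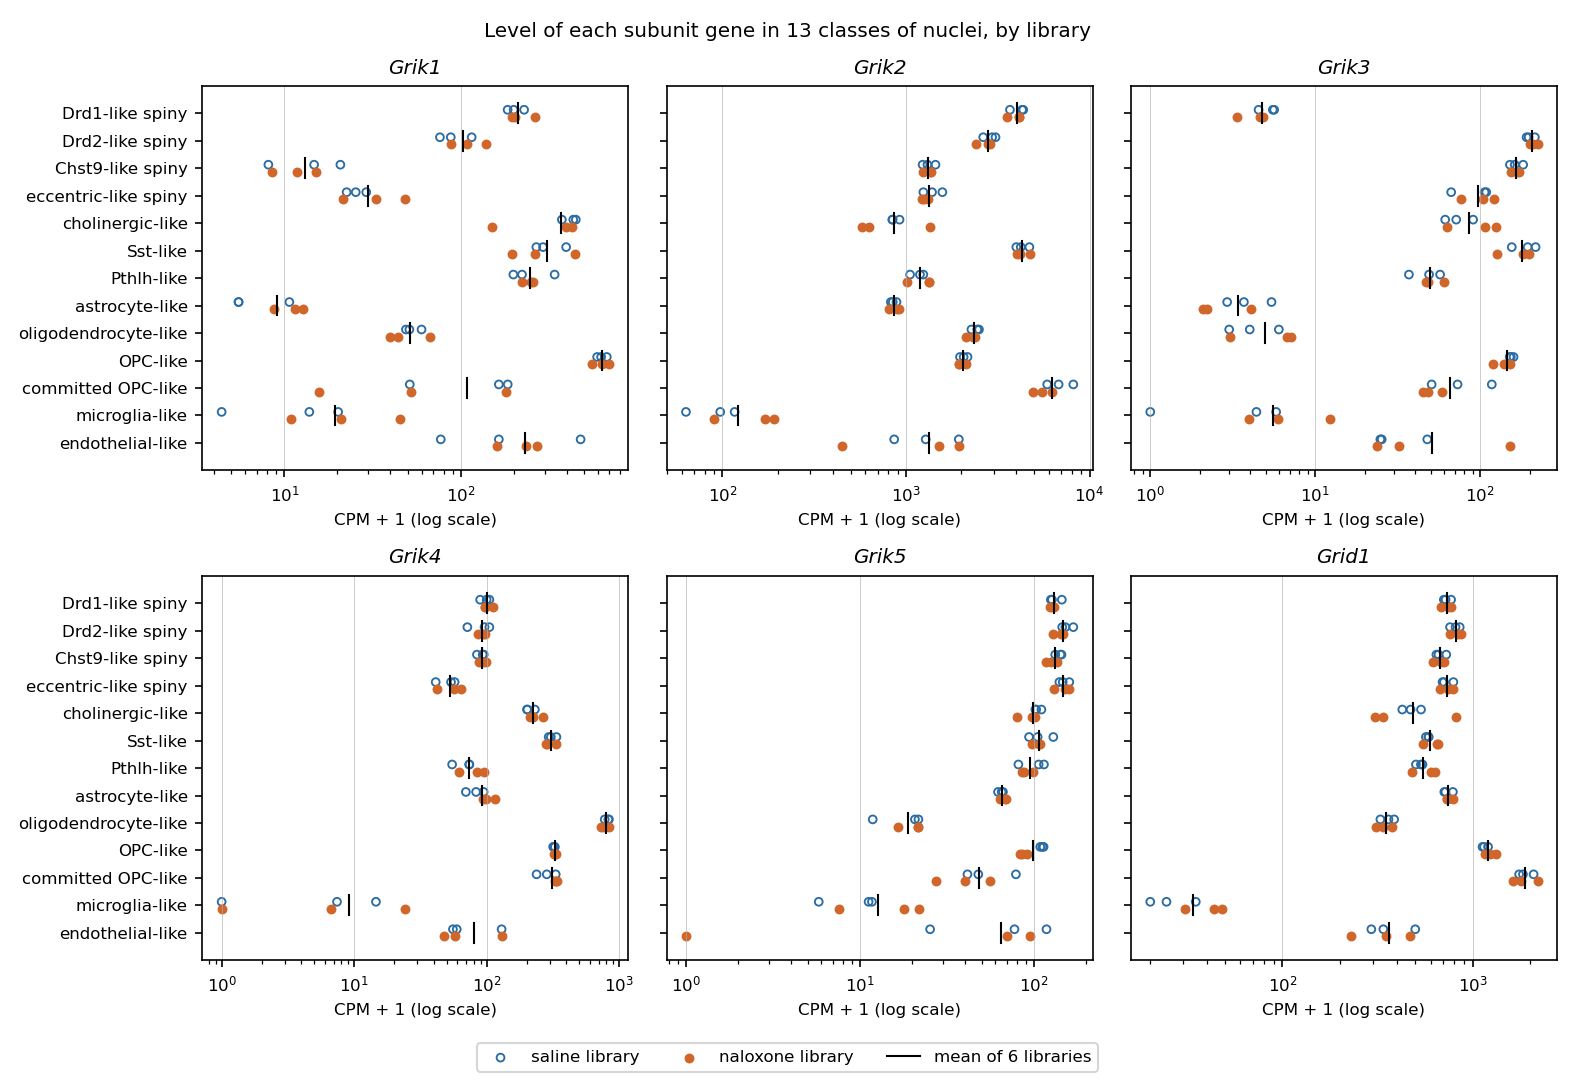
Level of each of the 6 genes in 13 classes of nuclei. The x axis is CPM (the UMIs of a gene per 1000000 UMIs of the class) plus 1 on a log scale, open blue circles are the 3 saline libraries, filled orange circles the 3 naloxone libraries and the black line is the mean of the 6. Grik3 is near 200 CPM in Drd2-like nuclei and below 5 CPM in all 6 libraries of Drd1-like nuclei, and saline and naloxone points overlap in nearly every row.

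Levels are given as CPM within the class sum of 1 library, as mean ± SD over the 6 libraries. They are compared for 1 gene between classes, not between genes, because capture differs between genes and no transcript lengths of the files' build were used. Neighbours in the order of classes are called apart here where the difference had 1 sign in all 6 libraries, and the highest class was set against the next with an exact permutation of the signs of the 6 library differences (two-sided), whose smallest p is 0.03125. Both classes of each such pair were picked by the means of the same 6 libraries. The p-values therefore describe how even the difference was over libraries and are no independent support for the order.

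Grik1 was highest in OPC-like nuclei, where it reached 627, 595 and 675 CPM in saline 1 to 3 and 634, 554 and 695 CPM in naloxone 4 to 6. The mean of 630.0 ± 51.5 CPM lay above that of cholinergic-like nuclei, 372 ± 113 CPM, in 6 of 6 libraries (exact permutation p = 0.03125, adjusted over the 6 genes 0.0469). Cholinergic-, Sst- (309.9 ± 92.3), Pthlh- (248 ± 50.0), endothelial- (231 ± 139) and Drd1-like nuclei (212 ± 29.9 CPM) followed, and no neighbours in that run were apart in all libraries. One library stood out: Grik1 in cholinergic-like nuclei was 149 CPM in naloxone 4 and 375 to 449.9 CPM in the other 5. There Grik2 was also 1347 CPM in naloxone 4 against 573 to 922 CPM, and Grid1 820.3 CPM against 306 to 534 CPM, so cholinergic-like values rest on 280 nuclei with 1 library apart. The summed level of the Drd1 marker list in these nuclei was at most 301 CPM in the naloxone libraries against 186 to 210 CPM in saline. That of the general spiny list was at most 843 CPM against 448 to 586 CPM. The cholinergic list was alike (958 to 1103 against 951 to 1092 CPM). Which naloxone library held each maximum is not given here, and the part of spiny neuron RNA in these values was not tested. Below Drd1-like nuclei, which were higher in 6 of 6 libraries, came committed OPC-like (107 ± 76.4) and Drd2-like nuclei (102 ± 23.3), then, lower than Drd2-like nuclei in 6 of 6 libraries, oligodendrocyte-like (50.9 ± 10.2) and eccentric-like nuclei (29.0 ± 9.87). Microglia-like (18.2 ± 14.2), Chst9-like (12.2 ± 4.76) and astrocyte-like nuclei (8.09 ± 3.08 CPM) closed the order, with no neighbours apart.

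Within the spiny neurons Grik1 therefore differed by class, and it also differed inside the Drd1-like class. In the Ebf1-led cluster, which expresses Calb1 and Crym, Grik1 was 332, 279 and 354 CPM in the saline libraries and 277, 375 and 475 CPM in the naloxone libraries. In the Dnah11-led cluster it was 104, 104 and 109.7 CPM and then 106, 84.1 and 99.9 CPM, so the ranges of these 2 clusters did not overlap. The Il20ra-led cluster lay between, at 185 ± 29.7 CPM. Among unnamed neuron clusters Grik1 was at 988 ± 89.0 CPM in the Tafa4-led cluster, 846 ± 91.1 in the Mboat1-led, 821 ± 93.5 in the Adamtsl1-led and 644 ± 69.7 CPM in the Bnc2-led cluster, all above the mean of any named class. The Itga11-led cluster, which also lists Drd2 and Casz1 among its leading genes, had 16.7 ± 8.91 CPM.

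Grik2 UMIs were found in 99.9% of Drd1-like and 77.2% of astrocyte-like nuclei, against 12.3% of microglia-like ones (94.7%, 51.8% and 8.70% after thinning every nucleus to 1000 UMIs). Its level was highest in committed OPC-like nuclei, with 8162, 5882 and 6789 CPM in the saline libraries and 4915, 5478 and 6212 CPM in the naloxone libraries. That mean of 6239.6 ± 1137 CPM exceeded the 4312 ± 335 CPM of Sst-like nuclei in 6 of 6 libraries (exact permutation p = 0.03125, adjusted 0.0469). Drd1-like nuclei followed with 4020.4 ± 333 CPM, lower than Sst-like nuclei in 5 of 6 libraries. From there each step down was seen in all 6 libraries: Drd2-like at 2793 ± 236, oligodendrocyte-like at 2341 ± 135, OPC-like at 2036 ± 93.7 and eccentric-like nuclei at 1333 ± 135 CPM. Eccentric-, endothelial- (1331 ± 596) and Chst9-like nuclei (1326 ± 81.5) were not apart, and Pthlh-like nuclei (1196 ± 139) lay below Chst9-like ones in 6 of 6 libraries. Astrocyte-like (863 ± 44.5) and cholinergic-like nuclei (859 ± 275) came next and were not apart from each other. Astrocyte-like nuclei were lower than Pthlh-like ones in 6 of 6 libraries. Microglia-like nuclei had 120.4 ± 49.3 CPM, lower than cholinergic-like nuclei in 6 of 6 libraries. The lowest neuronal levels were in the unnamed Dcdc1-ps1-led (401 ± 108) and Adamtsl1-led clusters (495 ± 79.1 CPM), and the highest was in the Igf1-led cluster, which lists the glutamate transporter Slc17a6, at 5461 ± 491 CPM.

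Grik3 divided the spiny neurons. In Drd2-like nuclei it was 195, 213 and 190.0 CPM in the saline libraries and 222, 207 and 199 CPM in the naloxone libraries. In Drd1-like nuclei it was 4.64, 4.53 and 3.53 CPM and then 3.83, 3.60 and 2.38 CPM, so every Drd2-like value lay far above every Drd1-like one. The mean of Drd2-like nuclei, 204 ± 11.8 CPM, was above that of Sst-like nuclei, 177 ± 32.8 CPM, in only 4 of 6 libraries (exact permutation p = 0.1875, adjusted 0.225), and Sst-like nuclei were not apart from Chst9-like ones (163 ± 11.5 CPM). OPC-like nuclei (144 ± 14.6) were lower than Chst9-like nuclei in 6 of 6 libraries, and eccentric-like nuclei (96.2 ± 21.0 CPM) were lower again in 6 of 6. Cholinergic- (85.0 ± 25.5), committed OPC- (64.6 ± 27.3), endothelial- (49.8 ± 50.0) and Pthlh-like nuclei (48.8 ± 8.31) came next without neighbours apart. A step in all 6 libraries then led to the lowest classes, microglia- (4.57 ± 3.76), oligodendrocyte- (3.99 ± 1.86), Drd1- (3.75 ± 0.819) and astrocyte-like nuclei (2.41 ± 1.26 CPM), of which the last pair was apart in 6 of 6 libraries.

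The Grik3 level of Drd1-like nuclei was no higher than that of microglia, which are not neurons and serve here as a gauge of free RNA in the droplets. Of Drd1-like nuclei, 2.44 ± 0.391% had a Grik3 UMI at a median of 8961.5 UMIs per nucleus, against 0.608 ± 0.451% of microglia-like nuclei at a median of 1272 UMIs. With every nucleus thinned to 1000 UMIs, the shares were 0.301 ± 0.0339% and 0.373 ± 0.424%, with 0.0118% and 31.5% of nuclei left out as too shallow. The depths of these classes differ, and free RNA can weigh more in a shallow nucleus. These shares therefore cannot tell free RNA from low expression, and the source of Grik3 UMIs in Drd1-like nuclei was not tested. With classes taken by marker gate, a rule that assigned 1476 nuclei to the Drd1 class, both shares were higher, 6.19% in Drd1-like and 9.28% in microglia-like nuclei. In Drd2-like nuclei 73.2 ± 4.20% had a Grik3 UMI, and 18.0 ± 1.96% after thinning. Chst9-like nuclei had 54.1 ± 7.34% and, after thinning, 15.6 ± 1.83%. All 3 Drd1-like clusters were low in Grik3, with 2.08 ± 0.962 CPM in the Ebf1-led, 3.96 ± 1.81 in the Il20ra-led and 5.79 ± 2.55 CPM in the Dnah11-led cluster. So was the Adamtsl1-led cluster (4.63 ± 3.88 CPM), whose leading genes include the dopamine receptor Drd3. Grik3 was highest in the Itga11-led (334 ± 44.8), Dcdc1-ps1-led (319 ± 65.6), Cdh23-led (318 ± 36.7) and Mboat1-led clusters (304 ± 54.5 CPM).

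**Figure D2:**
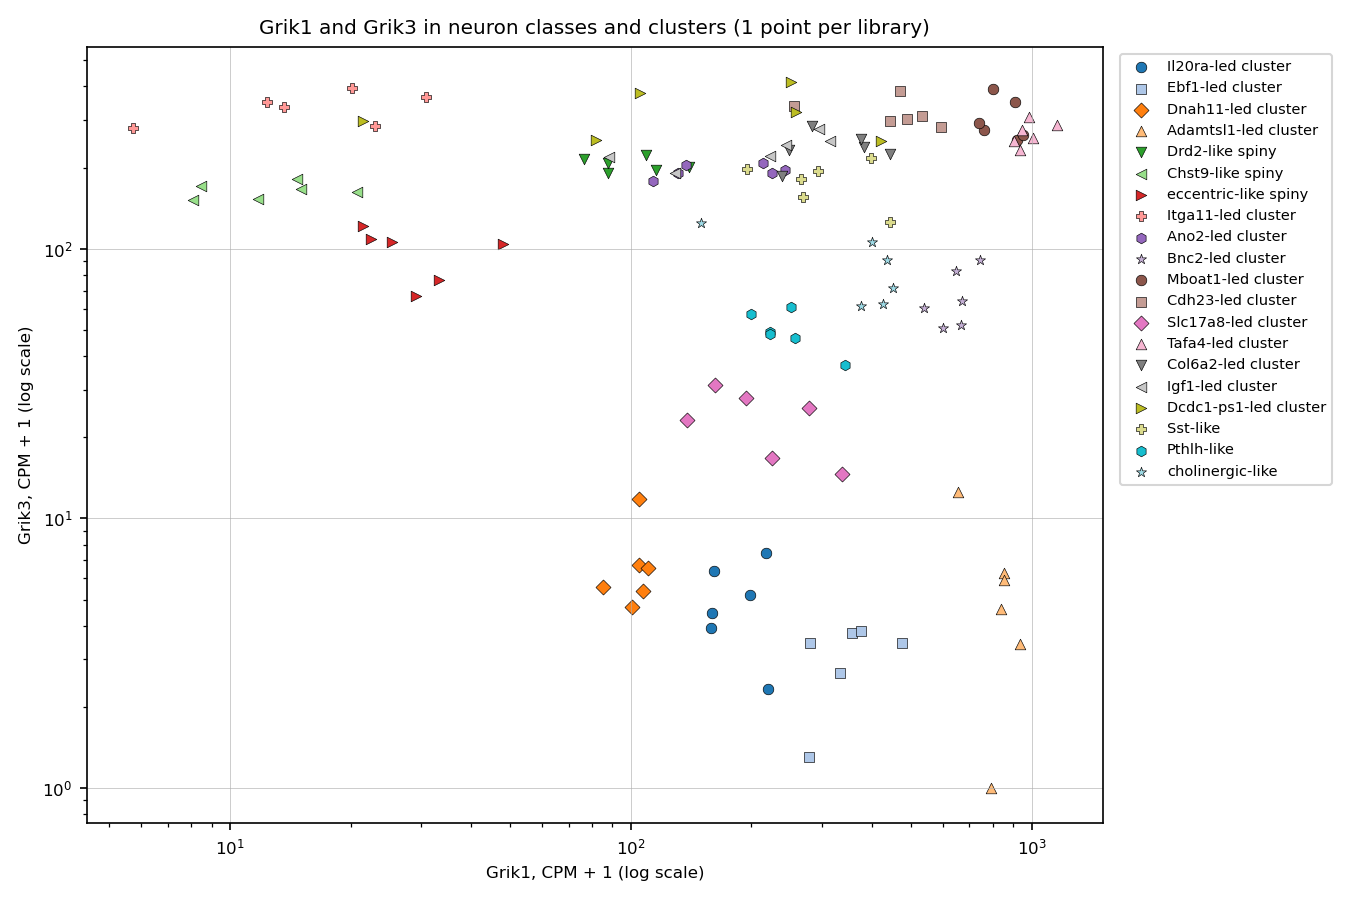
Grik1 against Grik3 in neuron classes and unnamed neuron clusters, both as CPM plus 1 on log scales, with 1 point per library and class. Drd1-like clusters and the Adamtsl1-led cluster lie at the bottom right (Grik1 with little Grik3), Chst9-like, eccentric-like and Itga11-led nuclei at the top left, and the Mboat1-led and Tafa4-led clusters are high in both.

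The plot of Grik1 against Grik3 shows that these genes were neither exclusive nor tied to each other. Chst9-like nuclei had Grik3 at 163 ± 11.5 CPM with Grik1 at 12.2 ± 4.76 CPM, and the Adamtsl1-led cluster had the opposite mix. The Tafa4-led cluster had both, with Grik3 at 267 ± 27.4 CPM. Of Chst9-like nuclei, 3.81 ± 1.16% had a Grik1 UMI (1.33 ± 0.557% after thinning), against 2.26 ± 1.82% (1.62 ± 1.26%) of microglia-like nuclei. After thinning, the Chst9-like share was thus no higher than the microglia-like one. That share depended on how the class was drawn: without thinning it was 7.95% at the coarser clustering, against 2.26% of microglia-like nuclei, and 13.3% by marker gate, against 15.7%. In OPC-like nuclei, with a median of 3127 UMIs, 68.6 ± 8.60% had a Grik1 UMI and 40.3 ± 4.59% did after thinning.

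Among the high-affinity subunits, Grik4 was highest in a glial class. Oligodendrocyte-like nuclei had 776, 835 and 826 CPM in the saline libraries and 764, 730.3 and 836 CPM in the naloxone libraries. Their mean of 795 ± 44.3 CPM was above the 324 ± 6.25 CPM of OPC-like nuclei in 6 of 6 libraries (exact permutation p = 0.03125, adjusted 0.0469), and the OPC-like values, 316 to 335 CPM, were the tightest of the 13 classes relative to their mean. OPC-, committed OPC- (309 ± 40.6) and Sst-like nuclei (304 ± 25.0) were not apart, and cholinergic-like nuclei (222 ± 23.7 CPM) were lower in 6 of 6 libraries. A further step in 6 of 6 led to Drd1-like nuclei. Drd1-like (99.0 ± 7.67), astrocyte-like (91.4 ± 15.2), Chst9-like (91.0 ± 5.12), Drd2-like (90.4 ± 11.5), endothelial-like (79.1 ± 38.8), Pthlh-like (73.1 ± 14.8) and eccentric-like nuclei (51.6 ± 8.94 CPM) formed a run without neighbours apart. Microglia-like nuclei were last, at 8.12 ± 8.87 CPM, below eccentric-like nuclei in 6 of 6 libraries.

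Grik4 also varied inside classes. The 3 oligodendrocyte-like clusters with enough nuclei had 939 ± 166 CPM (Rasgrp3-led), 704 ± 65.0 (Ninj2-led) and 439.6 ± 75.7 CPM (Creb5-led). These clusters drew unevenly on the libraries: saline 3 gave 33.9% of the Rasgrp3-led nuclei and naloxone 5 only 48 of 4444, so the spread between them is not free of library. A further oligodendrocyte-like cluster, led by Gpd1 and with 3479 nuclei, had too few in saline 1 to be used. It held 9, 47 and 62 nuclei in the saline and 1124, 1568 and 669 in the naloxone libraries. The division of this class into clusters is therefore not free of treatment either, and the cause was not tested. Astrocyte-like nuclei split into a Slc1a2-led cluster, with 33.1, 44.2 and 51.7 CPM in the saline and 64, 50.3 and 37.6 CPM in the naloxone libraries, and a Lama2-led cluster, with 192, 268 and 212 and then 224, 228 and 198 CPM. These ranges did not overlap, and the share of nuclei with a Grik4 UMI was 10.3 ± 2.65% and 35.2 ± 4.80% (3.89 ± 0.758% and 18.6 ± 3.13% after thinning) at similar medians of 2438 and 2551 UMIs. Microglia-like nuclei had 0.735 ± 0.634% (0.639 ± 0.602%). Within the Drd1-like class the order was the reverse of that for Grik1, with Grik4 at 57.8 ± 5.60 CPM in the Ebf1-led and 138 ± 14.4 CPM in the Dnah11-led cluster.

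Grik5, the other high-affinity subunit, had its highest means in spiny neurons, and OPC-like nuclei were level with interneurons. Eccentric-like nuclei had 145, 158 and 139 CPM in the saline libraries and 157, 150.2 and 129.9 CPM in the naloxone libraries, and Drd2-like nuclei 150.3, 167 and 144 and then 127, 145 and 142 CPM. The means, 147 ± 10.9 and 146 ± 12.9 CPM, did not differ beyond the spread (higher in eccentric-like nuclei in 2 of 6 libraries, exact permutation p = 1). Chst9-like nuclei lay below Drd2-like ones in 6 of 6 libraries. Chst9-like (131 ± 10.1), Drd1-like (129 ± 7.53), Sst-like (105 ± 12.3), cholinergic-like (97.7 ± 10.4), OPC-like (97.7 ± 14.0) and Pthlh-like nuclei (94.4 ± 12.9 CPM) formed a run in which no step was seen in all libraries. Astrocyte-like nuclei were lower than Pthlh-like ones in 6 of 6 libraries, at 64.7 ± 2.55 CPM, and were not apart from endothelial-like nuclei (63.3 ± 43.6). Committed OPC-like nuclei had 47.5 ± 17.5 CPM and oligodendrocyte-like nuclei 17.9 ± 3.99 CPM, a step seen in all 6 libraries, while microglia-like nuclei had 11.7 ± 6.10 CPM. Oligodendrocyte-like nuclei were thus the highest class for Grik4 and the second lowest for Grik5, and 3.10 ± 0.489% of them had a Grik5 UMI against 1.55 ± 0.746% of microglia-like nuclei (1.79 ± 0.411% and 1.27 ± 0.862% after thinning).

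Grid1 was highest along the oligodendrocyte lineage before maturity. Committed OPC-like nuclei had 2089, 1836 and 1753 CPM in the saline libraries and 1784, 1618 and 2193 CPM in the naloxone libraries. Their mean of 1879 ± 218 CPM was above that of OPC-like nuclei, 1201 ± 74.9 CPM, in 6 of 6 libraries (exact permutation p = 0.03125, adjusted 0.0469), and OPC-like nuclei were above Drd2-like ones (814 ± 48.2 CPM) in 6 of 6. Drd2-, astrocyte- (744 ± 34.8), eccentric- (731 ± 50.3) and Drd1-like nuclei (730.0 ± 34.1) were not apart from their neighbours, and Chst9-like (671 ± 39.8), Sst-like (597 ± 42.8) and Pthlh-like nuclei (549 ± 58.0 CPM) each lay 1 step lower in 6 of 6 libraries. Cholinergic-like (482 ± 186), endothelial-like (362 ± 103) and oligodendrocyte-like nuclei (349 ± 30.2) followed, with microglia-like nuclei last at 32.7 ± 10.8 CPM. Of all neuron clusters the Cdh23-led one, which also lists Lhx8, had the highest mean, 1324 ± 89.5 CPM. The unnamed Smoc2-led cluster carried all 8 astrocyte markers. There the 6 genes summed to 1368 ± 129 CPM and the Grik genes alone to 1305 ± 127 CPM, so Grid1 was far below its astrocyte-like level. Of OPC-like nuclei 93.4 ± 3.50% had a Grid1 UMI (67.7 ± 3.55% after thinning), against 4.01 ± 0.912% (2.78 ± 1.70%) of microglia-like nuclei.

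**Figure D3:**
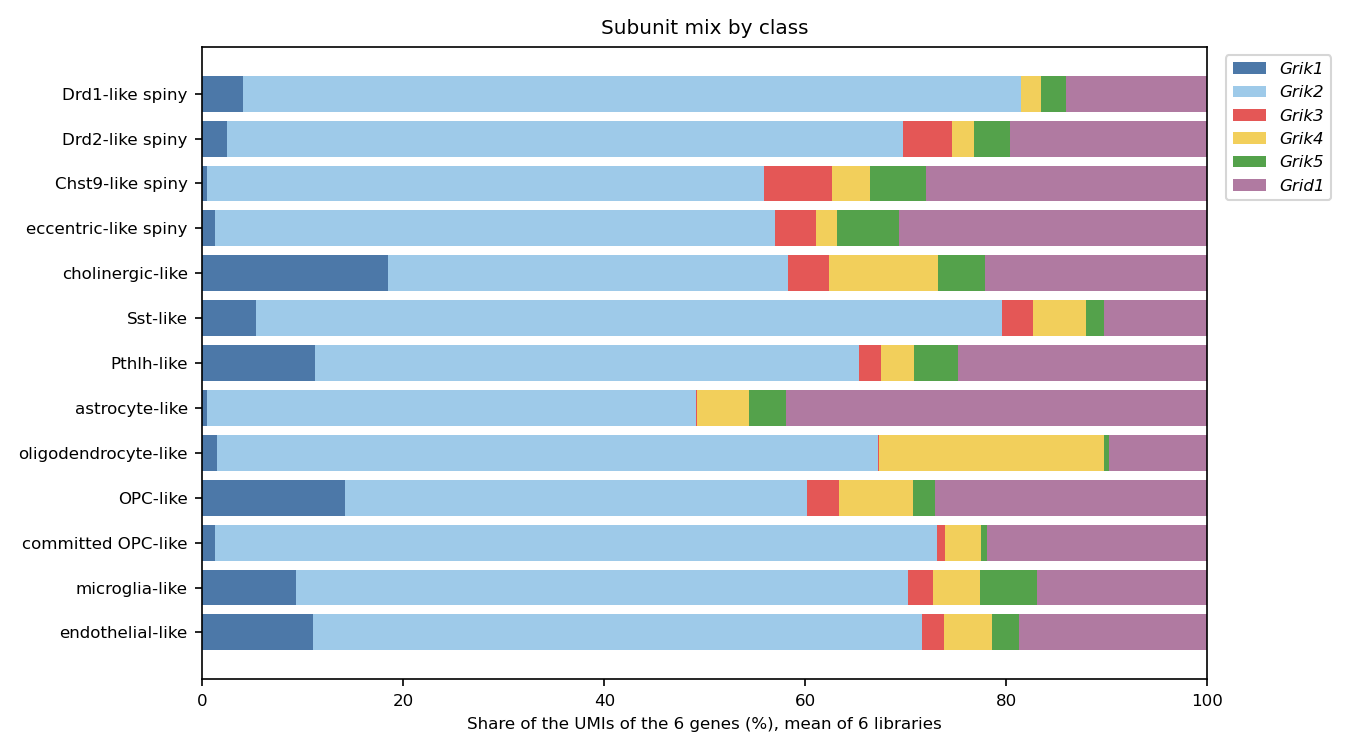
Share of each gene among the UMIs of the 6 genes in each class, as the mean of the 6 libraries in percent. The Grik4 band is widest in oligodendrocyte-like nuclei (22.3%), the Grid1 band in astrocyte-like nuclei (41.9%) and the Grik2 band in Drd1-like nuclei (77.3%).

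The subunit mix is the share of 1 gene among the UMIs of all 6 in a class. It is set against the same gene's share in other classes, since shares of different genes also reflect how well each is captured. Grik2 made up 77.3 ± 1.5% of the mix in Drd1-like nuclei, 67.2 ± 2.07% in Drd2-like, 55.3 ± 1.96% in Chst9-like and 55.8 ± 3.39% in eccentric-like nuclei. The Grid1 share was the other way about, from 14.1 ± 1.06% in Drd1-like and 19.7 ± 1.25% in Drd2-like nuclei to 28.0 ± 1.40% in Chst9-like and 30.7 ± 2.25% in eccentric-like nuclei. Chst9-like nuclei also gave Grik3 its largest share among named classes, 6.82 ± 0.441%, against 4.95 ± 0.483% in Drd2-like and 0.0727 ± 0.0170% in Drd1-like nuclei. Cholinergic-like nuclei had the largest Grik1 share of the named classes, 18.5 ± 6.73%, ahead of OPC-like nuclei with 14.2 ± 0.681%, and the share in naloxone 4 alone was 5.42%.

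Glial mixes differed in Grik4 and Grid1, among other genes. Grik4 took 22.3 ± 0.862% of the mix in oligodendrocyte-like nuclei, 7.32 ± 0.349% in OPC-like nuclei and 1.91 ± 0.199% in Drd1-like nuclei. Grid1 took 41.9 ± 1.62% in astrocyte-like nuclei, 27.1 ± 1.57% in OPC-like and 9.81 ± 0.617% in oligodendrocyte-like nuclei. Over all classes and clusters, Grik1 had its largest share (39.9 ± 5.02%) and Grik2 its smallest (23.9 ± 3.03%) in the Adamtsl1-led cluster. In the Dcdc1-ps1-led cluster, of 157 nuclei, Grik3 reached 20.8 ± 4.20%.

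Set beside the AMPA and NMDA receptor genes (10 listed), the 6 genes weighed most, among the 13 classes, in oligodendrocyte-like and committed OPC-like nuclei. They made up 88.0 ± 2.26% of the summed UMIs of all 3 families in oligodendrocyte-like and 86.6 ± 3.52% in committed OPC-like nuclei. OPC-like nuclei had 47.6 ± 0.852%, close to the 46.7 ± 2.04% of astrocyte-like nuclei. Among named neuron classes the share ran from 48.0 ± 2.07% in Sst-like, 42.6 ± 1.82% in Drd1-like and 36.4 ± 1.90% in Drd2-like nuclei down to 24.5 ± 0.954% in Chst9-like, 22.0 ± 0.940% in eccentric-like and 16.2 ± 1.76% in Pthlh-like nuclei. Unnamed neuron clusters went beyond this range, with 57.5 ± 1.36% in the Mboat1-led and 13.4 ± 1.85% in the Dcdc1-ps1-led cluster.

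Nuclei with a Grik4 or Grik5 UMI were checked for one of Grik1, Grik2 or Grik3. In Drd1-like nuclei 6820 of 6823 had one, and in Drd2-like nuclei 3810 of 3810. The count was 1473 of 1488 in OPC-like, 7004 of 7548 in oligodendrocyte-like and 1092 of 1326 in astrocyte-like nuclei. In microglia-like nuclei it was 10 of 38. Grik2 UMIs alone were found in nearly all Drd1-like and most astrocyte-like nuclei, so high counts there were fixed in advance. The share over all nuclei of a class was not set beside these counts, and they are no support for a pairing of subunits. These counts move with depth, which was a median of 8341.5 UMIs in Drd2-like, 2454 in astrocyte-like and 1623 in oligodendrocyte-like nuclei, and a nucleus without a UMI of a partner may still express it.

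**Figure D4:**
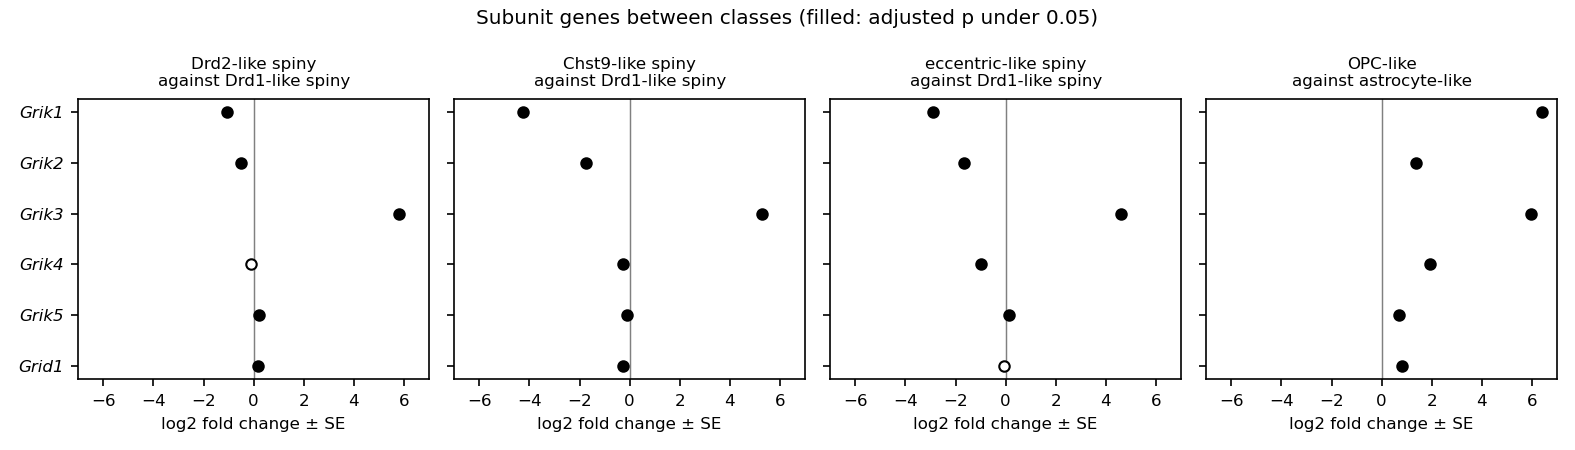
Differences of the 6 genes between classes as log2 fold change with standard error (bars mostly smaller than the symbols), from edgeR with library as a block. Filled symbols have an adjusted p under 0.05. Grik3 lies above 4 in all 3 comparisons with Drd1-like nuclei, and all 6 genes lie above 0 in OPC-like against astrocyte-like nuclei.

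The classes were then compared gene by gene with edgeR's quasi-likelihood test on UMIs summed per class and library, with library as a block and Benjamini-Hochberg adjustment over all genes of the fit. Classes came from clustering the same nuclei, so many genes differ between them by construction, and each count is read against the share of all genes called. In Drd2-like against Drd1-like nuclei, 5 of the 6 genes were called, where 24.7% of 13612 genes were (12.3% higher and 12.4% lower). Grik3 was higher by a log2 fold change of 5.80 (standard error 0.07, adjusted p = 3.93e-23). Grik5 (0.22) and Grid1 (0.19) were slightly higher, Grik1 (-1.05) and Grik2 (-0.49) lower, and Grik4 (-0.10, adjusted p = 0.0966) was not called, but was with no filter on low counts (-0.11, edgeR adjusted p = 0.0398). Grik3 in Drd1-like nuclei was no higher than in microglia-like nuclei. Its fold here and in both comparisons that follow is therefore one over a level near the floor, not an exact size. The median of the 6 log2 values was 0.05, against 0.00 over all genes.

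Chst9-like against Drd1-like nuclei gave calls for all 6 genes, where 54.1% of 13524 genes were called (28.0% higher and 26.1% lower). Grik3 was higher (5.30, standard error 0.08, adjusted p = 1.14e-23) and the other 5 were lower. The differences were large for Grik1 (-4.26, standard error 0.11, down to a level no higher than the microglia-like mean) and Grik2 (-1.75, standard error 0.03) and small for Grid1 (-0.28), Grik4 (-0.27) and Grik5 (-0.12, edgeR adjusted p = 0.0134). The median was -0.27 against 0.03 over all genes. In eccentric-like against Drd1-like nuclei 5 of 6 were called, where 36.1% of 13216 genes were (17.5% higher and 18.5% lower), with Grik3 at 4.61 (standard error 0.10), Grik1 at -2.90, Grik2 at -1.64, Grik4 at -0.98 and Grik5 at 0.13 (adjusted p = 0.0237), while Grid1 (-0.05, adjusted p = 0.258) was not. The Grik5 call against Drd1-like nuclei was lost without saline 2 or naloxone 4 for Chst9-like nuclei, and without saline 1, naloxone 4 or naloxone 5, or with no filter on low counts, for eccentric-like nuclei. All 3 comparisons share the Drd1-like sums.

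In OPC-like against astrocyte-like nuclei all 6 genes were higher, where 59.8% of 11511 genes were called, 28.6% higher and 31.2% lower. The log2 fold changes were 6.38 for Grik1 (standard error 0.12, adjusted p = 7.81e-28), 5.95 for Grik3 (standard error 0.15), 1.94 for Grik4, 1.36 for Grik2, 0.81 for Grid1 and 0.70 for Grik5. Their median was 1.65 against -0.04 over all genes. Astrocyte-like Grik1 and Grik3, at 8.09 ± 3.08 and 2.41 ± 1.26 CPM, were no higher than the microglia-like levels, so these 2 folds too are over a level near the floor.

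A list of 22 other genes of the pathway covers auxiliary subunits, cerebellins and their kin, neurexins, scaffold proteins and the ADAR enzymes that edit receptor transcripts. In Drd2-like against Drd1-like nuclei 7 of 17 tested were higher and 4 lower, where 12.3% and 12.4% of all genes were. The auxiliary subunit Neto1 was higher by 0.29 (1269.9 ± 95.9 against 1064 ± 61.1 CPM), Neto2 by 0.17 and the scaffold Grip1 by 0.29, as were Dlg1, Adarb1 and Nrxn3. Cbln4, a cerebellin, was higher by 2.01 at only 2.68 ± 0.468 CPM. Adarb2, a brain ADAR family member without known editing activity, was lower by 3.67 on the log2 scale (52.5 ± 21.9 against 668 ± 32.6 CPM), and the scaffold Cask was also lower.

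In Chst9-like against Drd1-like nuclei 7 of 16 listed genes were higher and 6 lower, and in eccentric-like against Drd1-like nuclei 8 of 16 were higher and 5 lower, where 54.1% and 36.1% of all genes were called. Neto1 was lower in both (-1.02 and -0.41), and Neto2 was higher in both (0.24 and 0.18). Adarb2 (2.27 and 2.82) and Grip1 (1.11 and 1.58) were higher in both. In OPC-like against astrocyte-like nuclei 12 of 17 were higher and 1 lower, where 28.6% and 31.2% of all genes were: Neto1 by 4.87 (546 ± 95.9 against 19.8 ± 5.66 CPM), Neto2 by 1.81, Nrxn2 by 5.01 and Adarb2 by 5.26, with Pick1 at -0.67. Oligodendrocyte-like nuclei, the highest class for Grik4, had 29.0 ± 7.48 CPM of Neto1 and 56.3 ± 7.93 CPM of Neto2. The medians of the list were 0.02, 0.11, 0.22 and 1.29 in the 4 comparisons, and the AMPA and NMDA genes had 6, 7, 6 and 8 calls among 8, 8, 8 and 9 tested, where 24.7%, 54.1%, 36.1% and 59.8% of all genes were called.

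As a description of likeness, the genes whose class means of log2(CPM + 1) correlated best with each member over the 13 classes were found among 10522 genes with at least 20 CPM in some class. The points share libraries and depth, and no test was made. Grik5 was closest to Rims2 (Pearson r = 0.99), Gucy1a2 (0.97) and Armc9 (0.97). Grid1 was closest to Plekha6 (0.97), Lsamp (0.94) and Apc2 (0.94), and Grik4 to Ncam1 (0.93), Mapt (0.92) and Tmod2 (0.90). For Grik2 they were Map3k13 (0.89), Zfp334 (0.88) and Ppp2r2b (0.88). The likeness was lower for Grik1, with Csmd2 at 0.85 and 2 genes without a symbol (ENSRNOG00000068127 at 0.85 and ENSRNOG00000071123 at 0.83), and for Grik3, with Atcay (0.83), Nalf1 (0.82) and Macroh2a2 (0.81).

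**Figure D5:**
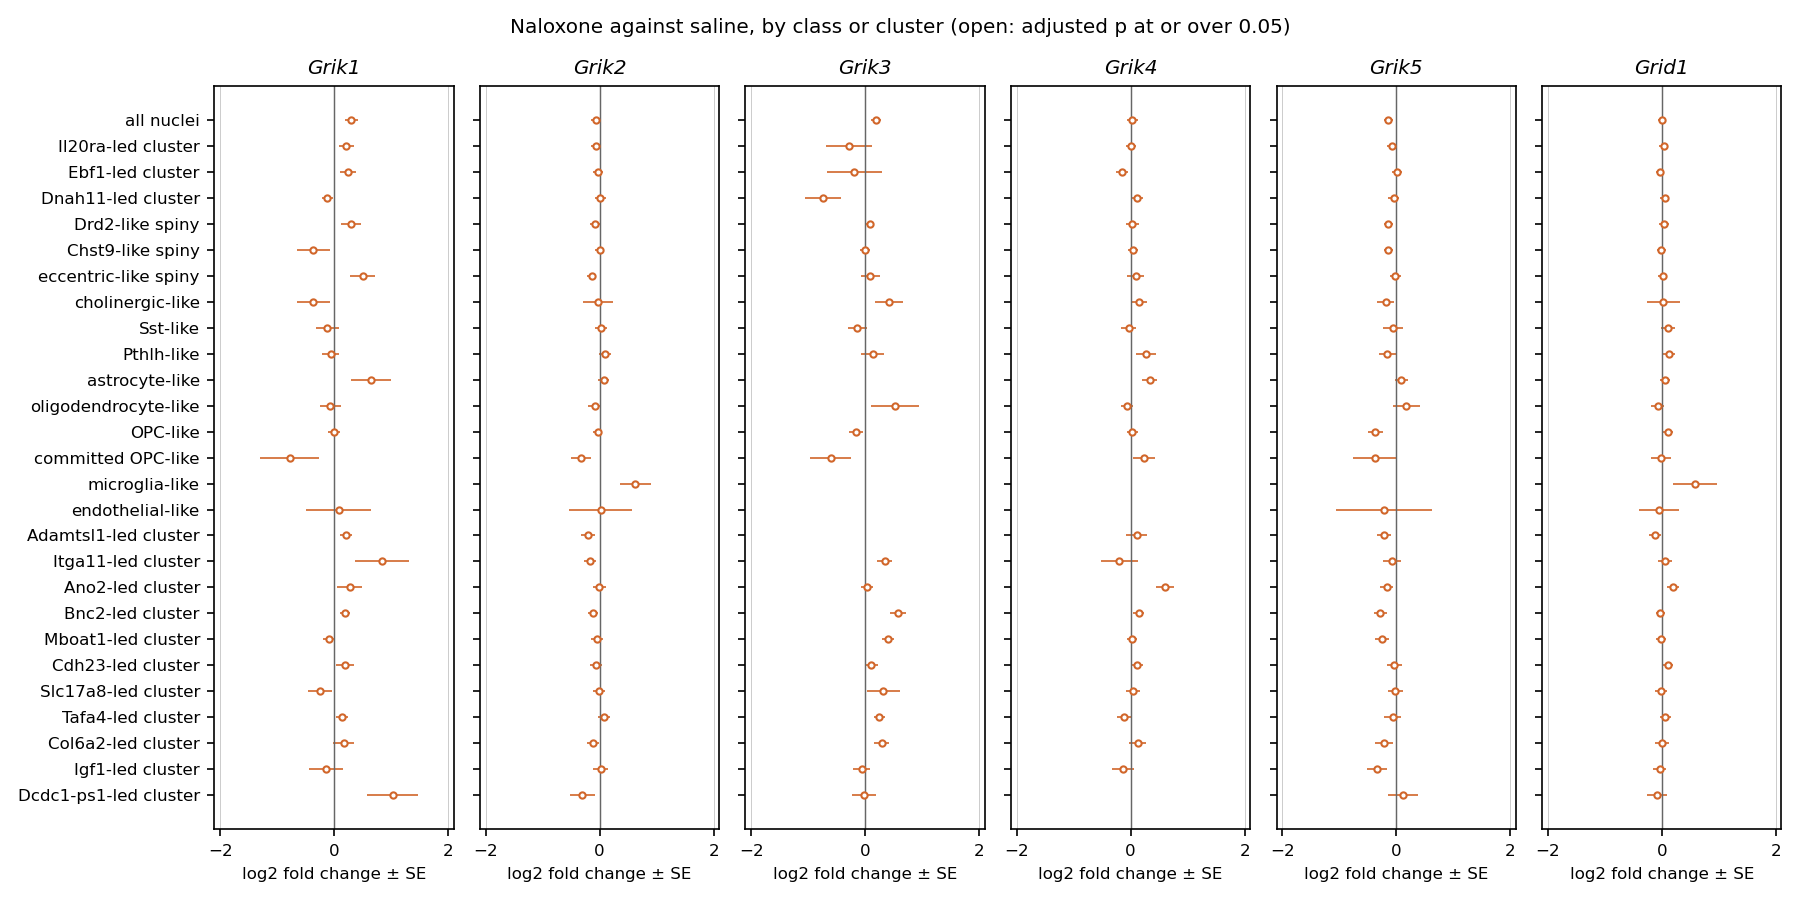
Naloxone against saline for the 6 genes, as log2 fold change with standard error from edgeR, over all nuclei and in 26 classes and clusters. All symbols are open because no adjusted p was under 0.05, and genes that did not pass the filter on low counts in a class have no symbol.

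Naloxone was compared with saline first over all nuclei. Grik1 was 228, 197 and 240.5 CPM in the saline libraries and 287, 233 and 304 CPM in the naloxone libraries, so the groups overlapped at naloxone 5. Grik3 was 91.0, 104 and 89.9 CPM and then 115, 100.3 and 111 CPM, overlapping at the same library. In edgeR's fit 0 of the 6 genes were called, where 0.0922% of 17357 genes were, and DESeq2 also called 0 of the 6, against 2.56% of its genes. The log2 fold changes were 0.30 for Grik1 (standard error 0.12, adjusted p = 0.304), 0.19 for Grik3 (0.08, adjusted p = 0.337), -0.14 for Grik5 (0.08, adjusted p = 0.442), -0.07 for Grik2 (0.09, adjusted p = 0.762), 0.03 for Grik4 (0.10, adjusted p = 0.927) and 0.01 for Grid1 (0.07, adjusted p = 0.979). Grik1 and Grik3 had unadjusted p-values under 0.05 (0.0292 and 0.0423), as 14.2% of all genes did. Sums over all nuclei cannot tell fewer nuclei of a type from less RNA in each nucleus. The Grik1 share of the mix was 5.39 ± 0.343% in saline and 6.73 ± 0.465% in naloxone libraries without overlap. An exact permutation of 3 against 3 libraries cannot give a p below 0.1, the value found. The CPM of 21.6% of all genes did not overlap between the groups over all nuclei, while Grik1 did overlap by that measure. No such percentage was made for shares of a mix.

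Within classes the pooled Drd1-like class was replaced by its 3 clusters, and the unnamed Smoc2-led cluster (457 nuclei, at least 32 per library) was not fitted. This gave 26 fits with 147 tests of the 6 genes. The remaining 9 of 156 did not pass the filter on low counts: Grik1, Grik3, Grik4 and Grik5 in microglia-like nuclei, Grik3 and Grik4 in endothelial-like nuclei, Grik3 in astrocyte-like nuclei and in the Adamtsl1-led cluster, and Grik4 in the Dcdc1-ps1-led cluster. None of the 147 was called by edgeR, where 0.27% of all tests over genes and classes were, and DESeq2 called 0 of 142, against 0.22% of its tests. Unadjusted p-values under 0.05 were found in 14 of the 147, or 9.52%, against 8.58% of all tests. The number of genes called in a fit ran from 0 to 217, with 52 (0.42%) in Drd2-like nuclei.

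The lowest adjusted p-values were those of Grik3 in 2 unnamed clusters. In the Bnc2-led cluster, which also lists Slc17a6 and Prlr, Grik3 was 59.2, 49.7 and 50.9 CPM in the saline and 89.5, 63.1 and 81.6 CPM in the naloxone libraries, without overlap (log2 0.58, standard error 0.14, edgeR adjusted p = 0.186). In the Itga11-led cluster it was 284, 335 and 280.3 CPM and then 349, 363 and 394 CPM, also without overlap (edgeR adjusted p = 0.196). Grik4 in the Ano2-led cluster was 43.2, 50.0 and 52.7 CPM and then 70.1, 95.2 and 59.8 CPM (log2 0.60, standard error 0.16, edgeR adjusted p = 0.326). Grik5 in OPC-like nuclei was 112, 108 and 111 CPM and then 84.1, 89.5 and 82.1 CPM (edgeR adjusted p = 0.344), again with no overlap between groups. Such separation occurred in 13 of the 147 tests, where 14.4% of all genes with at least 60 UMIs showed it.

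The members differed in how their naloxone values were scattered over classes. Grik5 was above 0 in 4 of 25 fits, with a median log2 of -0.14 and a range of -0.38 to 0.18. Grik2 had a median of -0.03 over 26 fits and Grid1 one of 0.02, with values from -0.11 to 0.59, the highest in microglia-like nuclei, where Grid1 was 32.7 ± 10.8 CPM. Grik1 ranged from -0.78 in committed OPC-like nuclei to 1.03 in the Dcdc1-ps1-led cluster, with 163 and 255 Grik1 UMIs in all (the latter value was 2.32 without saline 2, 0.55 without saline 3 and 0.55 without naloxone 5), and was above 0 in 14 of 25 fits. Grik4 was above 0 in 17 of 23 fits, with a median of 0.04, and Grik3 in 13 of 22, with a median of 0.09. The classes are not independent, since each fit uses the same 6 libraries. How often other genes lay on 1 side in as many fits was not counted, so these counts of signs are a description only.

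In the spiny neurons no member was called. Grik1 was 115, 75.3 and 86.9 CPM in saline and 108, 86.8 and 139 CPM in naloxone libraries of Drd2-like nuclei, and 24.4, 21.5 and 28.1 CPM against 20.4, 32.2 and 47.1 CPM in eccentric-like nuclei, overlapping in both. A test of treatment by class over the 3 Drd1-like clusters and the Drd2-, Chst9- and eccentric-like classes called 0.86% of 12670 genes and 0 of the 6, with edgeR adjusted p-values from 0.625 for Grik1 to 0.940 for Grid1. Grik1 was called there without naloxone 4 (edgeR adjusted p = 0.0279), where 134 of 12890 genes were called.

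Of the pathway list 1 of 381 tests over classes was called and of the AMPA and NMDA genes 1 of 205, where 0.27% of all tests were, so neither share stands out from all genes. Grip1, a scaffold for glutamate receptors, was higher with naloxone in astrocyte-like nuclei: 129.6, 118 and 141 CPM in the saline and 191, 155 and 215 CPM in the naloxone libraries (log2 0.57, standard error 0.13, edgeR adjusted p = 0.0485), where 0.953% of genes were called. The call was lost with classes taken by marker gate (log2 0.09) and without saline 1, 2 or 3 or naloxone 4 or 6. Grin1, the obligatory NMDA receptor subunit, was higher in the Itga11-led cluster (log2 0.61, edgeR adjusted p = 0.0111), a call lost without saline 2, saline 3 or naloxone 6. In that cluster 3.17% of genes were called, the highest share of the 26 fits.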

How the data were processed

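Single-nucleus libraries (10x 3' chemistry) of rat nucleus accumbens were analysed from the deposited matrices, whose values are raw UMI counts per gene and barcode. Per the submitters' processing notes, Cell Ranger 9.0.1, R 4.4.0, Seurat 5.2.1 and the build mRatBN7.2 were used. The treatment of intronic reads and any filter before deposit are not given in the sources used here. No genome of that build was used, so no positions or sequences are given.

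Of 64260 barcodes, 61609 passed minima of 500 genes and a ceiling of 5% mitochondrial UMIs, and the 2649 (4.30%) nearest to simulated doublets in their library were removed, at an assumed 0.4% per 1000 nuclei. Clustering used 3000 variable genes without the 6 members, 40 principal components, 15 neighbours and Leiden resolution 1 (leidenalg 0.10.2). Clusters were named from marker lists, of which 113 of 117 genes were present. UMIs were summed per class and library and tested with edgeR 4.0.16 (quasi-likelihood, TMM, filterByExpr, R 4.3.3), naloxone against saline without covariates and classes with library as a block, each adjusted over all genes of the fit. DESeq2 1.42.0 was an alternative. The fits were tested on simulated data. Other alternatives were RLE scaling, no filter on low counts, a minimum of 1000 genes, no doublet removal, coarser clusters (Leiden resolution 0.5), classes by marker gate, thinning to 1000 UMIs and leaving out each library.

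Named genes are the 6 members, the listed pathway and AMPA and NMDA genes, and the 3 genes most like each member. Some genes of the pathway list are counted but not reported here by name. The members and lists were chosen with earlier results of these data known. Pairs of libraries within a group had a chi-square per gene of 10.5 to 50.7, far above counting noise, so none was counted as a duplicate. Naloxone 5 stood apart in its group, at 50.7 from naloxone 4 and 42.0 from naloxone 6, which were 17.0 from each other. The 50.7 also exceeded the highest value between groups, 44.6 (saline 3 and naloxone 5).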

Additional observations from a re-analysis of the deposited data

Results flagged for a closer look

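Grik3 was picked out because its saline and naloxone libraries separated fully in 6 neuron clusters, out of 22 fits, upward in 5 and downward in 1. In these clusters 11% to 19.2% of all genes separated in the same way, and 14.4% did over all classes and clusters. As the log2 ratio of group means, naloxone against saline, it was 0.55 in the Bnc2-led cluster (78.1 against 53.3 CPM), 0.39 in the Mboat1-led (344 against 263 CPM), 0.30 in the Itga11-led (369 against 299.7 CPM), 0.28 in the Col6a2-led (258 against 213 CPM) and 0.23 in the Tafa4-led cluster (289 against 246 CPM). In the Dnah11-led cluster it was -0.80 (4.22 against 7.35 CPM), at a level near the 4.57 ± 3.76 CPM of microglia-like nuclei. The difference between these clusters was not tested, and none of the 6 values passed edgeR's adjusted threshold. Grik3 was not alone in this: Grik5 separated in 5 of 25 fits, all downward (lowest edgeR adjusted p = 0.344).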

How the results depend on the processing

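No paired analysis was possible because the saline libraries (1 to 3) and naloxone libraries (4 to 6) share no replicate number. Members called over all nuclei stayed at 0 under the alternatives run. In Drd2-like against Drd1-like nuclei they were 5, and 6 with no filter on low counts (Grik4, edgeR adjusted p = 0.0398), where 3503 of 21392 genes were called. With the marker gate 30 shares of nuclei and 41 mix values moved by more than the spread between libraries, and 48 and 37 did not. Without the filter on low counts, 3 of 156 tests of members were called in class fits of naloxone against saline (Bnc2-led Grik3, adjusted p = 0.00316, Ano2-led Grik4, 0.0147, and Dcdc1-ps1-led Grik1, 0.0249, edgeR). Over all genes 2876 of 457864 tests were called there. The treatment-by-class test then called 1 member (Grik1, edgeR adjusted p = 0.000121), where 371 of 21671 genes were called. Leaving out 1 library gave 0 to 1 calls in each. Without saline 2 it was Dcdc1-ps1-led Grik1 (edgeR adjusted p = 0.00133), where 288 of 237565 tests over all genes were called. Without naloxone 5 it was Bnc2-led Grik3 (edgeR adjusted p = 0.0224), where 714 of 240470 were. By class, Grik1 was called without naloxone 4 (edgeR adjusted p = 0.0279), where 134 of 12890 genes were. With the marker gate the lead of the highest class was 121 CPM for Grik1, against 258, and 289 CPM for Grid1, against 678. The Grik5 difference of eccentric- minus Drd2-like nuclei, 0.516 CPM, ranged from -5.23 to 2.98 with 1 library left out and was negative without naloxone 4 (-5.23) or naloxone 5 (-0.352). Over all nuclei, Grik4 ranged from -0.0592 to 0.105 with 1 library left out (-0.0447 without saline 1, -0.0592 without naloxone 4) and Grid1 from -0.0317 to 0.0560, and Grid1 was -0.00143 with no filter, -0.000312 with DESeq2, -0.02 without saline 3, -0.01 without naloxone 4 and -0.0317 without naloxone 6. The causes were not tested.

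Genes called over all nuclei were 16 of 17357, against 380 of 14870 with DESeq2, 44 of 22760 with no filter, 0 with at least 1000 genes per nucleus and 0 to 266 with 1 library left out (266 of 17551 without naloxone 5). Over class fits they were 623 of 230887, against 2876 of 457864 with no filter and 264 to 714 with 1 library left out. By treatment and class they were 109 of 12670, against 371 of 21671 with no filter and 41 to 134 with 1 library left out. The endothelial-like mix and shares were not run at 1000 genes per nucleus. Depth limits classes with few nuclei or UMIs, where 9 of 156 tests of the members did not pass the filter.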
